A study of Mus musculus with 24 samples.

Results

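Liver transcripts were compared between circadian time 3 h (CT03) and circadian time 0 h (CT00), each represented by 3 arrays from 3 separate livers of adult male C57BL/6 mice. These 6 arrays belong to a course of 24 arrays of the type Affymetrix Mouse Gene 1.0 ST, which held 3 livers for each of 8 times spaced 3 h apart, and the other 18 arrays entered only the estimate of the spread. The CT03 mice and the CT00 mice had the same strain, sex and housing: 4 weeks of entrainment to 12 h of light and 12 h of dim red light, then constant dim red light, with collection during the second cycle. Food was freely available. By the usual convention CT00 is the subjective dawn and CT03 the early subjective day, in which mice rest. For each collection the labels mention 4 mice in one place and 3 biological replicates in a different one, and fewer times appear in the series text than among the samples. No livers were pooled, per the labels. Every gene with a single symbol was compared, which gave 19935 genes from an array of 28815 probe sets.

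Each value given here is a log2 value relative to the median of that gene over all 24 arrays, so 0 is the gene's own median of the day and no absolute level is known. A difference is the mean of the CT03 arrays minus the mean of the CT00 arrays, with its standard error, and a gene was called when its adjusted p was under 0.05 (limma, adjusted over all 19935 genes by the Benjamini-Hochberg method). Folds hold if the deposited log values have base 2. Liver is a mixture of cell types, and in whole tissue fewer cells of a type and less RNA per cell cannot be told apart.

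The mammalian clock is a feedback loop in which the activators CLOCK and BMAL1 (encoded by Arntl) bind E-box sequences and drive the genes of their own repressors, the PER and CRY proteins. The same activators drive Nr1d1 and Nr1d2, which encode the nuclear receptors REV-ERB alpha and REV-ERB beta. These receptors in turn repress Arntl and other genes that carry ROR elements. In mouse liver the loop feeds into bile acid, lipid and glucose metabolism, and the hours after subjective dawn follow the nightly feeding of mice.

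Of all genes, 1 was called between CT03 and CT00: Nr1d1 was 3.79-fold higher at CT03. No gene (0) was called lower. The share called was thus 0.00502% of 19935 genes in the higher direction and 0% in the lower. At an unadjusted p under 0.05, 690 genes were higher at CT03 (3.46% of those tested) and 485 were lower (2.43%), 5.89% together. All 3 CT03 arrays lay above all 3 CT00 arrays in 1963 genes (9.85%) and below them in 1315 genes (6.6%), 16.4% together, so groups that did not overlap were common and are read below against these shares. The median difference over all genes was 0.0155, with the 5th and 95th percentiles at -0.16 and 0.15, and the mean was higher at CT03 in 11589 genes and lower in 8346. At least a 1.5-fold difference was reached by 12 genes that were higher and 21 that were lower at CT03.

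**Figure D1:**
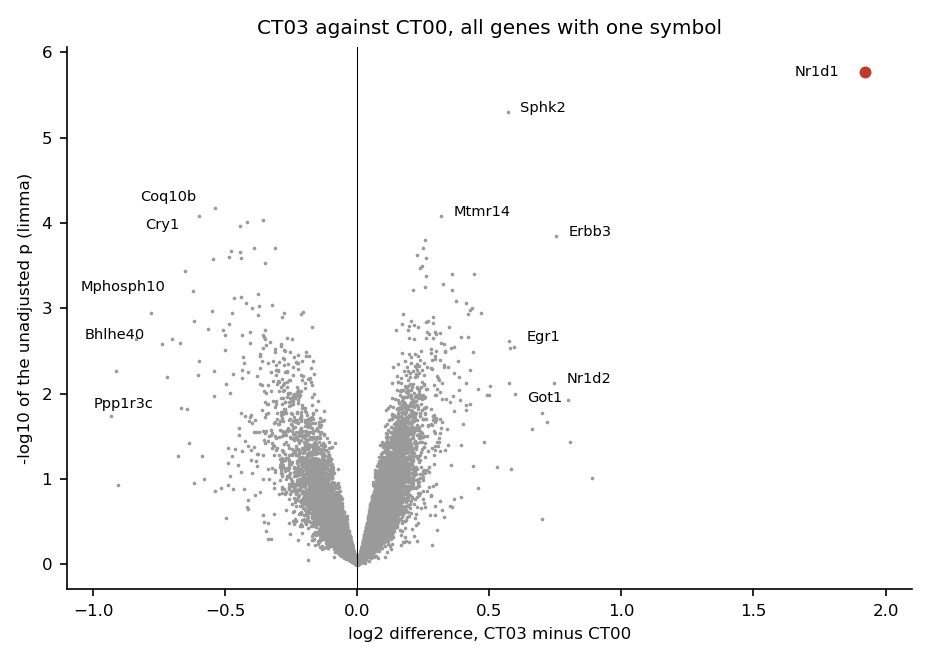
Each point is 1 of 19935 genes: the horizontal axis gives the log2 difference, CT03 minus CT00, and the vertical axis -log10 of the unadjusted p from limma. Nr1d1 (red) was the called gene, at a difference of 1.92, and Sphk2 stood next by p at 0.57.

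The step to CT03 had few calls among the 8 steps of 3 h around the day. By the same rule 0.14% of genes were called in either direction for CT06 minus CT03, 0.853% for CT09 minus CT06, 0.105% for CT12 minus CT09, 0.567% for CT15 minus CT12, 0.145% for CT18 minus CT15, 0.216% for CT21 minus CT18 and 0.00502% for CT00 minus CT21. The median size of a difference over all genes was 0.0555 for CT03 minus CT00 and 0.0531 to 0.0807 for the others. Neighbouring steps share arrays, so these shares are not independent of each other. Pairs of one CT03 and one CT00 array differed by a root mean square of 0.131 to 0.171 over all genes. Pairs of CT03 arrays differed by 0.128 to 0.152 and pairs of CT00 arrays by 0.109 to 0.149, so the groups were hardly further apart than their own replicates. The median of each of the 6 arrays lay between -0.00818 and 0.00281.

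Nr1d1, the REV-ERB alpha gene, had log2 values of 1.49, 0.38 and 1.23 in the CT03 livers, against -1.71, -0.78 and -0.17 in the CT00 livers. Every CT03 liver was above every CT00 liver, but the second CT03 liver was well below the other CT03 livers and the first CT00 liver far below the other CT00 livers. The difference was 1.92 ± 0.29 (SE), with a 95% interval of 1.32 to 2.53 and an adjusted p of 0.0335 by limma. This SE and interval rest on the spread over all 24 arrays and not on the 3 livers of each time alone. The SD between livers was 0.58 at CT03 and 0.77 at CT00, but 0.066 to 0.45 at the other times. Its group means from CT00 to CT21 were -0.89, 1.03, 1.72, 1.41, 0.20, -0.16, -1.79 and -1.40, so the transcript was still short of its highest mean at CT06. The call depended on single livers. The adjusted p was 0.096 without the first CT00 liver, 0.182 without the second CT00 liver, 0.568 without the first CT03 liver and 0.157 without the third CT03 liver, while the difference stayed between 1.51 and 2.28 whichever of the 6 was left out. With only the 6 arrays to estimate the spread, the adjusted p was 0.143.

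The sequence before the annotated start of Nr1d1 is shown because this was the gene called. It covers chr11:98775377-98775627 of GRCm38.p6, read 5′ to 3′ on the minus strand, and comes from the RefSeq promoter table. The capital at its end marks the start site.
Nr1d1: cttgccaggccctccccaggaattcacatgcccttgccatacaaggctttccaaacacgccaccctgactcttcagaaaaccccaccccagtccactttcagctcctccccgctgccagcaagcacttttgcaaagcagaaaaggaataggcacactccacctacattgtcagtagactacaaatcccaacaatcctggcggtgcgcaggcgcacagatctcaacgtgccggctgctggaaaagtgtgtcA
The letters searched on both strands were the E-box CACGTG, the D-box TTATGNAA, the sterol element TCACNCCAC, the cAMP element TGACGTCA, the ROR element and the heat shock element. None of them occurs in this window, and the rest of the gene was not searched.

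Nr1d2, the REV-ERB beta gene, had log2 values of -0.0289, -0.47 and -0.0689 in the CT03 livers, against -1.76, -0.82 and -0.21 in the CT00 livers. The groups overlapped because the third CT00 liver was already above the second CT03 liver, and the difference of 0.74 ± 0.25 did not pass (adjusted p = 0.62). Its highest mean, 0.79, came at CT12 and its lowest at CT21, so CT03 lay on the way up. The clock list with the repressors and their relatives holds the period, cryptochrome, REV-ERB, PAR bZIP and DEC genes and Ciart, 13 in all. In that list 3 members were higher and 3 lower at an unadjusted p under 0.05 (all genes: 3.46% and 2.43%). Nr1d1 was the member called. The median difference over its members was -0.0813 (0.0636 after quantile normalization), against 0.0155 over all genes. That normalization was applied to the centred values, so it matched the arrays on their deviations from the median and not on signal levels.

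Cry1, a repressor of CLOCK and BMAL1, had log2 values of -0.30, -0.0872 and -0.16 in the CT03 livers, against 0.48, 0.47 and 0.31 in the CT00 livers. All CT03 livers were below all CT00 livers, and the scatter within each time was small beside the gap. The difference was -0.60 ± 0.12, the second smallest p among genes with a lower mean, and still short of the threshold (adjusted p = 0.262). Cry1 was highest at CT21 and lowest at CT09. Cry2, its paralog, had a mean higher by 0.21 at CT03 with overlapping groups (adjusted p = 0.826), and its lowest mean was at CT00.

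Bhlhe40, which encodes the repressor DEC1, had log2 values of -1.07, -1.02 and -0.77 in the CT03 livers, against -0.53, -0.27 and 0.0419 in the CT00 livers. Its 3 CT03 livers were also below all of the other 21 arrays, by 0.24 from the nearest, the widest such gap of any gene at CT03. The difference between CT03 and CT00 was -0.70 ± 0.20 (adjusted p = 0.491), and the CT00 livers were spread more widely than the CT03 livers. Bhlhe41, which encodes DEC2, differed by -0.0582 with overlapping groups. Ciart, another repressor of the activators, had values of -0.73, -1.03 and -1.12 in the CT03 livers, against -1.27, -0.23 and 0.0898 in the CT00 livers. Its first CT00 liver was below every CT03 liver, and the difference of -0.49 had an adjusted p of 0.826.

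The period genes, which encode partners of the cryptochromes, were low at both times. Per1 had values of -0.36, -0.55 and -0.75 in the CT03 livers, against -0.65, -0.48 and -0.34 in the CT00 livers. Those of Per2 were -0.63, -0.54 and -0.86 in the CT03 livers, against -0.42, -0.42 and -0.58 in the CT00 livers. For Per3 they were -0.76, -0.76 and -0.80 in the CT03 livers, against -1.03, -0.67 and -0.37 in the CT00 livers. Each of the 3 genes had its lowest mean of the day at CT03, but the differences of -0.0644, -0.20 and -0.0847 came with overlapping groups, and all 3 turned to a higher mean at CT03 after quantile normalization. Dbp, a PAR bZIP activator of D-box genes, was the most scattered member, with -0.87, -1.34 and -0.84 in the CT03 livers, against -1.95, -0.64 and -0.0449 in the CT00 livers. The CT00 livers thus enclosed the CT03 livers, and the difference was -0.14 (adjusted p = 0.977). The related factors Tef and Hlf differed by -0.0813 and -0.0599, and both changed sign after quantile normalization.

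The CT00 livers kept much the same order across this list. The first CT00 liver was the lowest of its time in 11 of 13 members and the third the highest in 10 of 13. Among the CT03 livers no single array was lowest in more than 5 members or highest in more than 5. Without the third CT00 liver, the mean of Dbp, Tef, Per1, Per3 and Bhlhe41 was higher at CT03 instead of lower. The part of this scatter in the differences above was not tested.

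Arntl, Clock and Nfil3, of the list with the activators and genes with ROR elements, had their highest mean of the day at CT00 and the next highest at CT03. Arntl had values of 0.69, 0.72 and 0.73 in the CT03 livers, against 0.82, 0.76 and 0.70 in the CT00 livers, a difference of -0.0477 ± 0.13 that turned positive, at 0.0368, after quantile normalization. Clock differed by -0.0751 and Arntl2, a paralog of Arntl, by -0.0271. Nfil3, a repressor at D-boxes, differed by -0.0194. Rora, which encodes an activator at ROR elements, had a mean higher by 0.19 at CT03 (adjusted p = 0.899). None (0) of the 5 tested members had an unadjusted p under 0.05 or groups that did not overlap. Among the 11 tested modifiers of clock proteins, Usp2, a deubiquitinase that acts on clock proteins, had values of -1.20, -1.02 and -1.06 in the CT03 livers, against -0.96, -0.53 and -0.37 in the CT00 livers. That difference of -0.48 ± 0.13 had an adjusted p of 0.451, and the median over these modifiers was -0.039. Csnk1e, a casein kinase that phosphorylates PER proteins, differed by -0.10 ± 0.0576, with its CT03 livers all below its CT00 livers (adjusted p = 0.898).

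**Figure D2:**
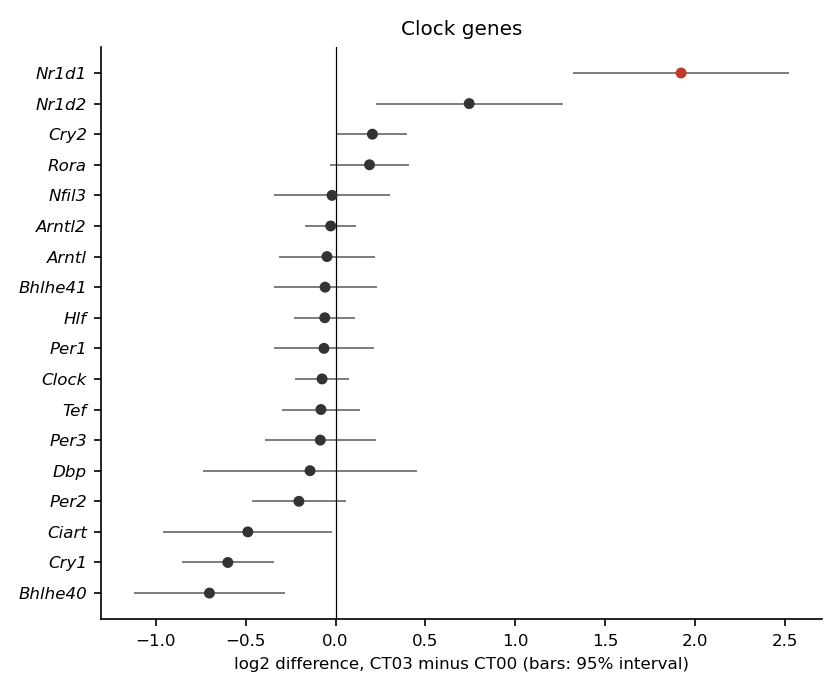
The log2 difference, CT03 minus CT00, is shown with its 95% interval for the 18 tested clock genes, ordered from highest to lowest. Nr1d1 (red) was called, and 12 of the other intervals cross 0.

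The E-boxes found in the windows of the clock list are printed because CLOCK and BMAL1 act through this sequence, with that of Wdr43 as an example from ribosome biogenesis, where Nop2 and Pes1 also hold one. Each line gives 30 bases from the RefSeq promoter table (GRCm38.p6), 5′ to 3′ on the strand of the gene, with the E-box in capitals.
Cry1: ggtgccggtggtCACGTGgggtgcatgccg
Ciart, most distant: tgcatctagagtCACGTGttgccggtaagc
Ciart, middle: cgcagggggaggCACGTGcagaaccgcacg
Ciart, nearest: cgtgcagaaccgCACGTGtctgggaggggg
Per1: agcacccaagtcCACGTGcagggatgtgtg
Bhlhe41: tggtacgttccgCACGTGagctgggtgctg
Tef, upstream start site: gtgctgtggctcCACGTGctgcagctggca
Tef, downstream start site: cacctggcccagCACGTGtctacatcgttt
Wdr43: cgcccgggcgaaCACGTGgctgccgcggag
The Cry1 stretch is chr10:85185097-85185126 on the minus strand, its E-box starting at -60 from the start site. The 3 Ciart stretches lie on the minus strand at chr3:95882327-95882356, chr3:95882269-95882298 and chr3:95882255-95882284, and the middle and nearest ones share bases. The Per1 stretch is chr11:69098771-69098800 on the plus strand, and that of Bhlhe41 is chr6:145865556-145865585 on the minus strand. The Tef stretches belong to windows of separate start sites, at chr15:81802534-81802563 and chr15:81811264-81811293 on the plus strand. Wdr43, a ribosome biogenesis gene described below, carries its E-box at 17 bases past the start site, in chr17:71616220-71616249 on the plus strand.

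The letters were searched on both strands in windows from 250 bases before to 50 after each start site, and 15612 of the 19935 tested genes had a window. CACGTG occurred in 9.5% of these genes and in 7.15% of all 32851 windows of the table. It occurred in 12.1% of the 556 genes that were higher and 18.6% of the 397 that were lower at CT03 at an unadjusted p under 0.05. In the clock repressor list 5 of 11 genes with a window had it, among the ribosome biogenesis genes 3 of 18 and among the cholesterol genes 5 of 18. The D-box letters occurred in 3.6% of the genes with a window, the ROR element in 0.192%, the sterol element in 1.4%, the heat shock element in 0.564% and the cAMP element in 2.72%. No motif contains another. A match is a run of letters and not evidence of binding.

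Outside the clock, the smallest p among genes with a higher mean belonged to Sphk2, a kinase that makes sphingosine 1-phosphate. Sphk2 had log2 values of 0.55, 0.46 and 0.45 in the CT03 livers, against -0.23, -0.0835 and 0.0653 in the CT00 livers. The CT03 livers were above all of the other 21 arrays, and the difference was 0.57 ± 0.0926, a 1.48-fold higher mean. Its adjusted p of 0.0502 by limma was just outside the threshold. It was 0.0445 with the replicate number as a block, 0.0483 with only the 6 arrays, 0.00549 with array weights and 0.00308 after quantile normalization, but 0.243 without moderation. With 1 liver left out it was 0.0323 without the third CT00 liver, 0.2 without the first and 0.365 without the second, and 0.612, 0.137 and 0.157 without the first, the second and the third CT03 liver. Erbb3, a receptor tyrosine kinase for neuregulins, had values of 0.70, 0.43 and 0.58 in the CT03 livers, against -0.38, -0.11 and -0.0392 in the CT00 livers. That was a difference of 0.75 ± 0.16, or 1.68-fold, with the highest mean of the day at CT03 and an adjusted p of 0.262.

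A further 12 genes filled up the 15 with the smallest p and a higher mean. Their adjusted p lay between 0.262 and 0.385 and their differences between 0.23 and 0.44. Mtmr14, a phosphoinositide phosphatase, had values of 0.25, 0.29 and 0.0914 in the CT03 livers, against -0.0222, -0.16 and -0.14 in the CT00 livers. Mettl27 differed by 0.44 ± 0.10 and Reck, an inhibitor of metalloproteinases, by 0.33 ± 0.079. Gngt1, a G protein gamma subunit known from rod cells, differed by 0.26 and exceeded the other 21 arrays by 0.0638. The others were Wdr59, Krt79, Epp13, Tom1l2, Lysmd4, Rps23rg1, Reep4 and Gm9696. Of these 15 genes, Nr1d1, Sphk2 and Erbb3 included, 12 had their highest mean of the 8 times at CT03, which a choice of genes high at CT03 favours.

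Coq10b, which encodes a mitochondrial protein that binds coenzyme Q, had the smallest p among genes with a lower mean. Its values were -0.77, -0.74 and -0.70 in the CT03 livers, against -0.50, -0.13 and 0.024 in the CT00 livers. The CT03 livers lay close together and below all of the other 21 arrays, while the CT00 livers were scattered, and the difference was -0.54 ± 0.11 (adjusted p = 0.262). Ces1d, a liver carboxylesterase, had values of -0.44, -0.21 and -0.30 in the CT03 livers, against 0.0498, 0.0683 and -0.00716 in the CT00 livers, a difference of -0.35 ± 0.073. Cyp39a1, an oxysterol hydroxylase of bile acid synthesis, had values of -0.36, -0.0204 and -0.69 in the CT03 livers, against 0.00136, 0.33 and 0.55 in the CT00 livers. Its CT03 livers were the more scattered group and its difference was -0.65 ± 0.15 (adjusted p = 0.301).

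Coq10b, Cry1, Ces1d and Cyp39a1 belong to the 15 genes with the smallest p and a lower mean. Among the others, Mphosph10, a component of the U3 small nucleolar ribonucleoprotein, had values of -0.36, -0.28 and -0.42 in the CT03 livers, against 0.38, 0.25 and 0.17 in the CT00 livers. That was a difference of -0.62 ± 0.15. Dnttip2, a nucleolar processing factor, differed by -0.42 ± 0.0863. The bromodomain chromatin remodelling subunits Baz1a and Baz1b differed by -0.44 ± 0.0925 and -0.35 ± 0.0797. Dancr, a noncoding RNA, differed by -0.48, and Rprl1, an RNase P RNA-like gene, by -0.44. The remaining ones were Zc3h8, Tor1b, Lonrf3, Tspan4 and Gimap9, with differences between -0.55 and -0.31. The adjusted p of all 15, Cry1 included, lay between 0.262 and 0.385, and none passed. Of the 15, 10 had their lowest mean of the day at CT03, which the choice likewise favours.

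**Figure D3:**
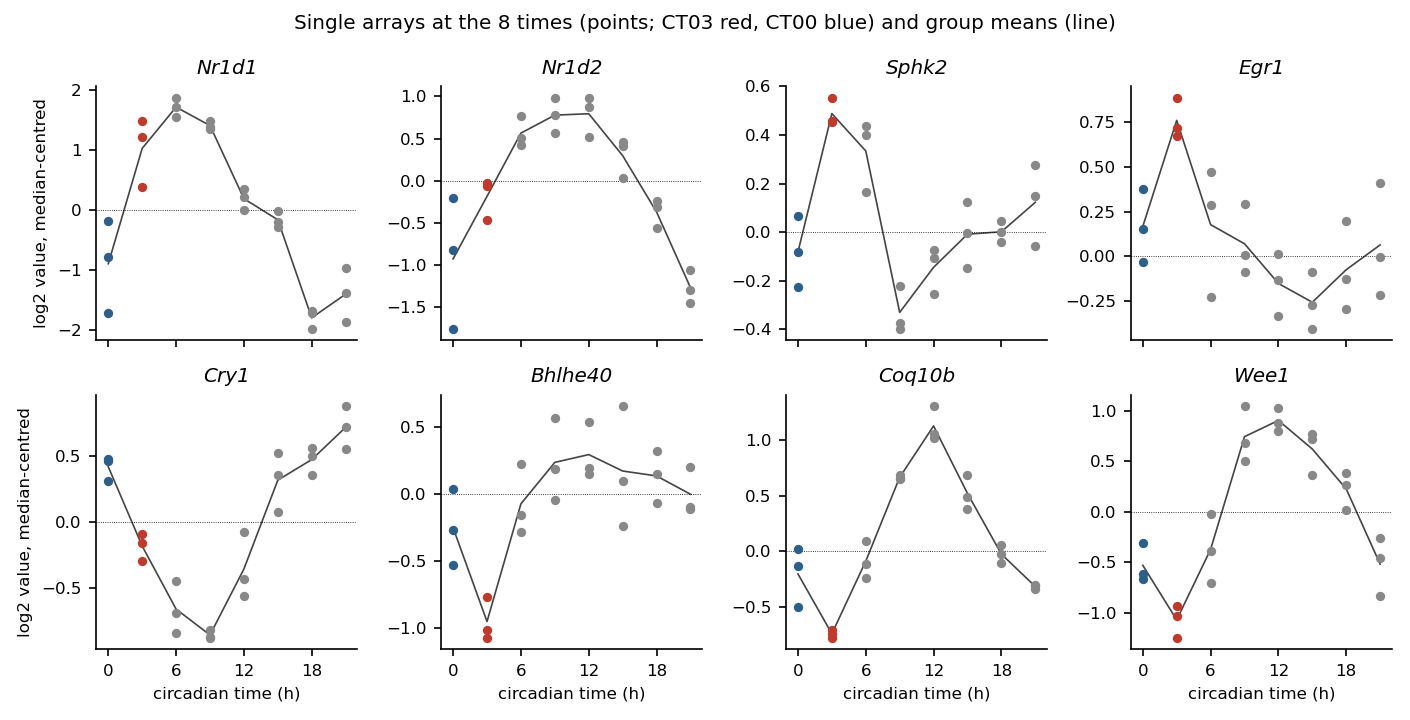
Log2 values relative to the gene's median (vertical axes) are plotted against circadian time in hours for 8 genes. Points are single arrays, with CT03 in red and CT00 in blue, and lines join group means. Nr1d1 and Nr1d2 lie on their way up and Cry1 on its way down, while Sphk2 and Egr1 are highest and Bhlhe40, Coq10b and Wee1 lowest at CT03.

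At CT03 all 3 arrays exceeded the other 21 in 21 genes and fell short of them in 28, where the other times had 15 to 57 and 11 to 51 such genes. Of the 10 with the widest gap, 2 were above. Egr1, an immediate early transcription factor, had values of 0.67, 0.89 and 0.72 in the CT03 livers, against -0.031, 0.15 and 0.38 in the CT00 livers, a difference of 0.59 ± 0.18 (adjusted p = 0.538). Tubb5, a beta tubulin, had values of 0.32, 0.32 and 0.32 in the CT03 livers, against 0.0549, 0.10 and 0.0612 in the CT00 livers. The CT03 livers were nearly equal in Tubb5, and the difference of 0.25 had an adjusted p of 0.57.

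Among the 8 below, next to Bhlhe40 and Coq10b, was Pfkfb3, which makes the glycolytic activator fructose 2,6-bisphosphate. It had values of -0.52, -0.53 and -0.67 in the CT03 livers, against -0.13, -0.18 and -0.0662 in the CT00 livers. Wee1, a kinase that holds back entry into mitosis and a known clock target in liver, had values of -1.25, -0.94 and -1.03 in the CT03 livers, against -0.67, -0.62 and -0.31 in the CT00 livers. Slc20a1, a phosphate transporter, had values of -0.57, -0.53 and -0.84 in the CT03 livers, against -0.18, -0.11 and 0.0138 in the CT00 livers. Ppat, the first enzyme of purine synthesis, differed by -0.37 ± 0.0958, and Spata2 and Klhl42 by -0.24 and -0.30. Adjusted p-values of these 8 were between 0.262 and 0.77.

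The list whose median lay furthest from that of all genes was ribosome biogenesis, whose products process ribosomal RNA in the nucleolus. Of 22 tested members 20 had a lower mean at CT03, as had 8346 of all 19935 genes. At an unadjusted p under 0.05, 12 members were lower, against 2.43% of all genes. In 14 members the CT03 arrays were all below the CT00 arrays, against 6.6% of all genes. No member (0) was higher by either measure. None was called. The median difference was -0.24, against 0.0155 over all genes, and it lay between -0.25 and -0.22 whichever liver was left out. The median over the members was -0.15, -0.18 and -0.21 in the CT03 livers, against 0.0779, 0.0203 and 0.00269 in the CT00 livers. Wdr43, a processome component, had values of -0.33, -0.33 and -0.30 in the CT03 livers, against 0.23, 0.0697 and 0.0655 in the CT00 livers. Nop56, a core protein of box C/D small nucleolar ribonucleoproteins, had values of -0.38, -0.51 and -0.38 in the CT03 livers, against 0.20, 0.0456 and -0.0605 in the CT00 livers. The adjusted p was 0.425 for Wdr43 and 0.49 for Nop56.

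Named after their values were seen, Nop58, the partner of Nop56, had the widest difference of the list at -0.67 ± 0.19, followed by Gnl3, which encodes nucleostemin, at -0.51 ± 0.14. Polr1a, the largest subunit of RNA polymerase I, differed by -0.25 and the nucleolar proteins Ncl and Npm1 by -0.24 and -0.27. Fbl, the methyltransferase that works with Nop56 and Nop58, had a difference of 0.00229 and Bop1 one of 0.12, the members with a higher mean. Ribosomal protein genes were nearer to the background, with a median of -0.0648 over 14 tested members, of which 1 was lower at an unadjusted p under 0.05. That was Rpl7 at -0.17, followed by Rps20 at -0.13.

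**Figure D4:**
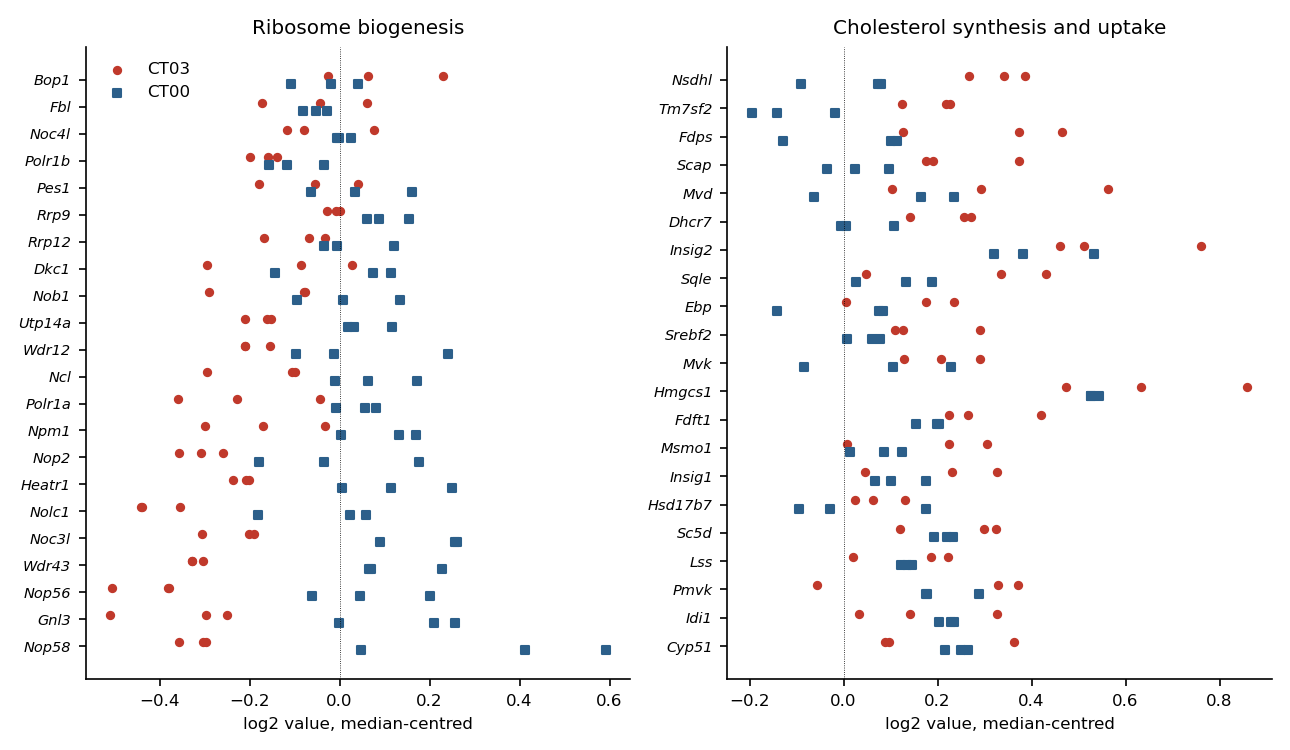
Each row is a gene of the ribosome biogenesis list (left, 22 genes) or the cholesterol list (right, 21 genes), and the horizontal axes give log2 values relative to the gene's median. Red circles are the 3 CT03 livers and blue squares the 3 CT00 livers, and the CT03 circles lie left of all CT00 squares in 14 ribosome biogenesis genes and right of them in 7 cholesterol genes.

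Cholesterol synthesis, uptake and SREBP control had a higher mean at CT03 in 19 of 21 tested members. Of all 19935 genes, 11589 had a higher mean. In 4 members the unadjusted p was under 0.05, where 3.46% of all genes were higher. In 7 members the CT03 arrays were all above the CT00 arrays, against 9.85% of all genes. No member (0) was lower by either measure and none was called. The median difference was 0.13, and 0.0756 to 0.16 with 1 liver left out. Tm7sf2, a sterol reductase, had values of 0.12, 0.22 and 0.23 in the CT03 livers, against -0.14, -0.19 and -0.0175 in the CT00 livers. Scap, the escort of the SREBP factors, had values of 0.37, 0.17 and 0.19 in the CT03 livers, against 0.0964, 0.0246 and -0.0356 in the CT00 livers. The differences were 0.31 ± 0.10 and 0.22 ± 0.0901, with adjusted p-values of 0.6 and 0.77.

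In bile acid synthesis a pair of enzymes had means that differed in opposite directions. Cyp7a1, the rate-limiting enzyme, had values of -0.63, -0.26 and -0.62 in the CT03 livers, against -0.011, -0.14 and -0.15 in the CT00 livers. Cyp8b1, which directs synthesis to cholic acid, had values of 0.32, 0.33 and 0.46 in the CT03 livers, against -0.00124, 0.00124 and 0.11 in the CT00 livers, and CT03 was its highest time. Their differences of -0.40 ± 0.19 and 0.33 ± 0.16 had adjusted p-values of 0.829 and 0.833. The median over the 18 members was 0.0222, close to that of all genes.

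Fatty acid and triglyceride synthesis had a higher mean at CT03 in 20 of 24 members, against 11589 of all 19935 genes. At an unadjusted p under 0.05, 4 members were higher and none (0) lower (all genes: 3.46% and 2.43%). The list median was 0.0774. Elovl5, an elongase of polyunsaturated fatty acids, had values of 0.71, 0.52 and 0.39 in the CT03 livers, against 0.23, 0.15 and 0.11 in the CT00 livers. It differed by 0.37 ± 0.0952 (adjusted p = 0.451). Me1, malic enzyme, which supplies NADPH, had values of 0.25, 0.0904 and -0.00392 in the CT03 livers, against -0.31, -0.20 and -0.0585 in the CT00 livers. Fatty acid oxidation and ketone synthesis had a median of 0.00408 with no member (0 of 22) at an unadjusted p under 0.05, and Cpt1a, the gate to mitochondrial oxidation, differed by 0.14 and Acaa1b, a peroxisomal thiolase, by 0.14. Among 13 genes of lipid droplets and lipases, 3 were higher at that threshold, and Lipe, hormone-sensitive lipase, differed by 0.19 ± 0.072 and Cidea by 0.14.

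At an unadjusted p under 0.05, glycogen metabolism held 3 of 11 members lower and none (0) higher (all genes: 2.43% and 3.46%). Ppp1r3b and Ppp1r3c encode subunits that bring protein phosphatase 1 to glycogen. Ppp1r3b had values of -0.35, -0.19 and -0.53 in the CT03 livers, against 0.29, 0.26 and 0.0733 in the CT00 livers. In Ppp1r3c they were 0.20, 0.48 and 0.16 in the CT03 livers, against 1.00, 0.91 and 0.92 in the CT00 livers. Neither gene's groups overlapped, and the differences were -0.56 ± 0.16 and -0.67 ± 0.25 (adjusted p = 0.491 and 0.701). In the glucose list 3 of 12 members were higher and 1 lower at the same threshold. Fbp1, a gluconeogenic phosphatase, differed by 0.10. Pck1, the gluconeogenic enzyme PEPCK, was named after its values were seen and had -0.12, -0.16 and -0.14 in the CT03 livers, against -1.57, -0.74 and -0.53 in the CT00 livers, with an adjusted p of 0.813.

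In insulin signalling, Trib3, a pseudokinase that binds AKT, differed by 0.32 ± 0.11 and Grb10, an adaptor of the insulin receptor, by -0.21 ± 0.0741. The growth hormone list gave 0.21 for Stat5b and 0.22 for Igfbp3, with overlapping groups in Stat5b. Of the NAD genes, Nmrk1, nicotinamide riboside kinase, had values of -0.54, -0.58 and -0.74 in the CT03 livers, against 0.0061, -0.098 and -0.27 in the CT00 livers, and its CT03 livers were below all of the other 21 arrays. Nampt, the rate-limiting enzyme of NAD salvage and a clock target, had values of -0.78, -0.41 and -0.57 in the CT03 livers, against -0.41, -0.26 and 0.026 in the CT00 livers. Their differences were -0.50 ± 0.15 and -0.37 ± 0.11 (adjusted p = 0.538 and 0.552). The medians of these 3 lists lay between -0.00767 and 0.0302.

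Genes of folding in the endoplasmic reticulum had 5 of 22 members higher and 1 lower at an unadjusted p under 0.05. Of all genes 3.46% were higher and 2.43% lower at that threshold. In 8 members the CT03 arrays were all above the CT00 arrays and in 3 all below, against 9.85% and 6.6% of all genes. The list median was 0.0561. Creld2, a gene induced by stress of the reticulum, had values of 0.76, 0.51 and 0.37 in the CT03 livers, against -0.00764, -0.0914 and -0.25 in the CT00 livers. Atf4, a transcription factor of the stress response, was the member lower at that threshold, with 0.17, 0.0934 and -0.0385 in the CT03 livers, against 0.29, 0.33 and 0.29 in the CT00 livers. Of the cytosolic heat shock genes, 2 of 18 were lower and none (0) higher at that threshold, with a median of -0.0554. Hspb1, a small heat shock protein, had values of -0.12, 0.0162 and -0.32 in the CT03 livers, against 0.59, 0.48 and -0.0502 in the CT00 livers, so the third CT00 liver lay among the CT03 livers. Chordc1, an HSP90 co-chaperone, differed by -0.36 ± 0.15. Cirbp, a cold-inducible RNA-binding protein, had values of 0.35, 0.14 and 0.44 in the CT03 livers, against -0.15, -0.14 and 0.089 in the CT00 livers, and Rbm3 differed by -0.16. The adjusted p-values of Creld2, Atf4, Hspb1, Chordc1 and Cirbp were between 0.56 and 0.77.

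Of the immediate early genes 1 of 17, Egr1, had an unadjusted p under 0.05, and Jun differed by -0.40 with overlapping groups. Among genes that respond to glucocorticoids, Tsc22d3, known as GILZ, had values of -0.60, -0.33 and -0.58 in the CT03 livers, against -0.0172, -0.16 and -0.31 in the CT00 livers. Dusp1 differed by -0.41 (adjusted p = 0.94). Autophagy and lysosome genes had 4 of 19 members higher at an unadjusted p under 0.05 and none (0) lower (all genes: 3.46% and 2.43%). Sqstm1, the receptor p62, had values of 0.25, 0.27 and 0.16 in the CT03 livers, against 0.0189, 0.0293 and 0.0208 in the CT00 livers, and Ulk1, the kinase that starts autophagy, differed by 0.22 ± 0.0928. Sqstm1 had its highest mean at CT03 and its CT00 livers were nearly equal, yet its adjusted p was 0.485.

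Xenobiotic metabolism had a lower mean at CT03 in 16 of 21 members, against 8346 of all 19935 genes, and a median of -0.10. In 3 of these members the unadjusted p was under 0.05, where 2.43% of all genes were lower. Cyp3a13 had values of -0.51, -0.27 and -0.20 in the CT03 livers, against 0.0111, 0.000734 and 0.11 in the CT00 livers. Abcb1a, a P-glycoprotein drug exporter, differed by -0.28 ± 0.0961. Amino acid breakdown had 4 of 17 members higher and none (0) lower at that threshold, where 3.46% of all genes were higher. The list median was 0.0395. Got1, cytosolic aspartate aminotransferase, had values of 0.19, -0.29 and 0.20 in the CT03 livers, against -0.79, -0.58 and -0.32 in the CT00 livers. Oat, ornithine aminotransferase, had values of -0.0294, 0.0402 and 0.35 in the CT03 livers, against -0.28, -0.27 and -0.32 in the CT00 livers. Differences of 0.60 ± 0.21 and 0.41 ± 0.14 had adjusted p-values of 0.652 and 0.62.

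**Figure D5:**
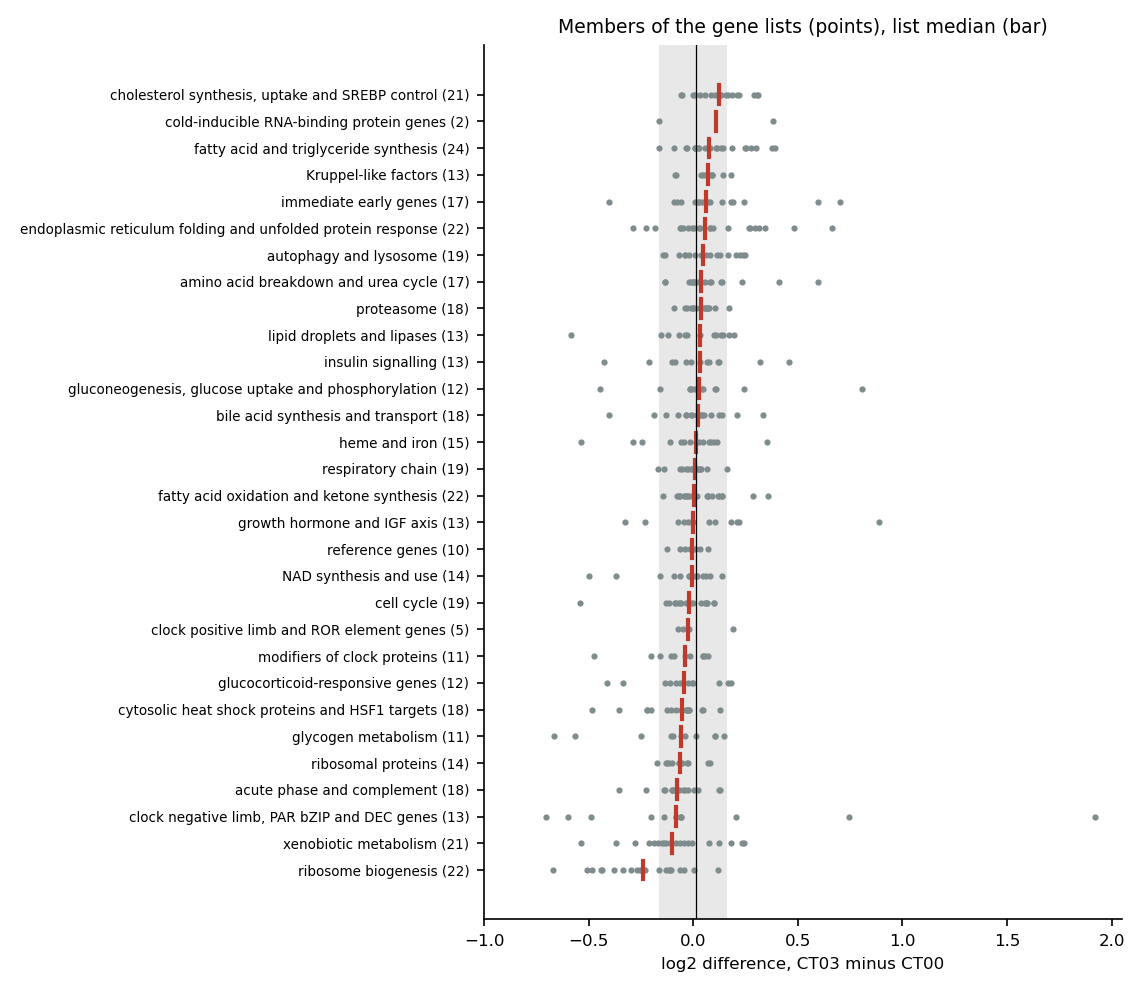
Each row is a gene list with its number of tested members, each grey point a member's log2 difference, CT03 minus CT00, and each red bar the list median. The grey band runs from the 5th to the 95th percentile of all genes and the vertical line marks their median. The list medians run from -0.24 for ribosome biogenesis to 0.13 for cholesterol, and the point near 1.9 is Nr1d1.

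The remaining lists had medians between -0.0765 and 0.0698. Acute phase and complement genes had a median of -0.0765, and Steap4, a metalloreductase, differed by -0.23 ± 0.0791 and was below all of the other 21 arrays, with Cfb at -0.10. In heme and iron no member (0 of 15) had an unadjusted p under 0.05, and the closest were Urod at 0.0993 and Slc40a1 at -0.29. The respiratory chain gave Uqcrc1 at 0.16 and Ndufv2 at -0.14, the proteasome Psmd1 at 0.17 and Psmd4 at 0.10. Klf7 and Klf6 had the smallest p of the Kruppel-like factors, with differences of 0.14 and 0.0875. In the cell cycle list Wee1 was followed by Ccne1 at -0.13. The reference genes had a median of -0.00553, with Tbp at -0.13 and Ppia at -0.0409.

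A few genes with wide differences had 1 liver far from the others of its time, and these were named after their values were seen. Gadd45g had a mean higher by 0.70, but its values were -0.29, -0.53 and 2.64 in the CT03 livers, against -0.00312, -0.28 and 0.00312 in the CT00 livers. The third CT03 liver alone was high, at the highest value in the whole file. Bcl6, a growth hormone target, had 0.50, 1.39 and 0.21 in the CT03 livers, against -0.49, -0.0307 and -0.0464 in the CT00 livers, and the adjusted p was 0.917. Angptl8, an insulin-induced secreted protein, had the lowest difference of any gene at -0.93 with -0.70, 0.0265 and -1.02 in the CT03 livers, against 0.41, 0.36 and 0.33 in the CT00 livers, and an adjusted p of 0.727.

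Markers of hepatocytes, other liver cells, blood cells, exocrine pancreas, adipocytes and muscle gave no call (0 of 71 tested markers). The 8 hepatocyte markers differed by -0.14 to -0.00717, and their median was -0.00594, -0.00116 and -0.00576 in the CT03 livers, against 0.00563, 0.0578 and 0.0257 in the CT00 livers. The 2 tested red blood cell markers, Alas2 and Slc4a1, differed by 0.17 and 0.10, with CT03 arrays all above the CT00 arrays (adjusted p = 0.937 and 0.957). Markers of Kupffer cells had a median difference of -0.11 and those of lymphocytes 0.0611, and 1 of all markers, Dcn of stellate cells at -0.28, had an unadjusted p under 0.05. Because values are centred, no marker can be shown to be absent, and the part of cell composition in the differences above was not tested.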

How the data were processed

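The deposited values were taken as log2 values, and the authors had centred each of 28815 probe sets on its median over the 24 arrays, as every row median was 0 to within 5e-07. What the authors used for background correction, summarization, normalization and log base is not given in the sources used here. Arrays have no depth, and their number limits the precision. Probe sets with 1 symbol in the platform annotation (21780) were averaged per gene, which gave 19935 genes, of which 998 had several probe sets (those of each named gene had the same sign). No filter on dim genes was applied, because no levels are given. The means of the 8 times were fitted in R 4.3.3 by limma 3.58.1 with moderated variances (empirical Bayes) and 16 residual degrees of freedom, and CT03 minus CT00 was adjusted over all genes at 0.05. The fit was also run on simulated data with added differences and independent normal noise. Those data hold no scatter shared between genes, so they do not cover such scatter.

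The 30 pathway lists (494 distinct members, 457 tested), the 11 marker lists and the rules were chosen with earlier results of these data known. The text names the 15 smallest p in each direction, all tested clock genes, the 2 smallest p in every other list and the 10 genes whose CT03 arrays lie furthest outside the other 21. Alternatives covered the arrays used for the spread, a replicate block, array weights, quantile normalization, median centring and the most variable probe set per gene. They also covered moderation, rounding class, thresholds and each liver left out. Quantile normalization was applied to the values already centred per probe set, so it equalized the spread of deviations between arrays. The p-values measure the spread between single livers.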

Additional observations from a re-analysis of the deposited data

Results flagged for a closer look

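Of 7035 probe sets with several symbols or none, which the gene comparison did not use, 6 were called lower and 0 higher at CT03 when all 28815 probe sets were fitted together by limma. The 21780 with 1 symbol gave 2 higher and 0 lower in that fit, so all 28815 gave 2 higher and 6 lower. Probe set 10494023, which the annotation does not list, had values of -0.74, -0.48 and -0.81 in the CT03 livers, against 0.18, 0.0254 and -0.14 in the CT00 livers. Its difference of -0.6993 had an adjusted p of 0.0191. The 5 others carry several symbols each, among them Ssty1 or Ssty2, members of multicopy gene families. Probe set 10608506 had -0.0558, -0.11 and -0.12 in the CT03 livers, against 0.51, 0.41 and 0.36 in the CT00 livers, a difference of -0.5263. The differences of probe sets 10608348, 10608457 and 10608339 were -0.4934, -0.4536 and -0.3837. Probe set 10608613 differed by -0.2547. All 5 had an adjusted p of 0.0466, none of their groups overlapped, and they share gene families, so they are not independent results.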

How the results depend on the processing

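Most settings moved the number of calls. With the spread from the 6 arrays of CT03 and CT00 alone, 6 genes were called higher and 14 lower, with array weights 13 and 22, and with quantile normalization 8 and 7. The 20 calls from 6 arrays and the 35 with weights shared 8 genes, 40% and 22.9% of each. The replicate number as a block gave 2 higher and 0 lower, and added after seeing the data, the block within the 6 arrays gave 16 and 33. Same-numbered CT03 and CT00 arrays deviated from their group means with correlations of 0.111, 0.0732 and 0.325, and differently numbered ones with -0.216 to 0.137. The numbers were not taken as pairs because the labels name no litter, batch or day shared by a number. Whether same-numbered livers share a source of scatter was not tested. The rounding steps of the deposited values were read to find probe sets whose values had been 8 or more before centring. The 2744 genes with such a probe set form the upper rounding class. Without moderation 0 were called in either direction, with 731 higher and 446 lower at an unadjusted p under 0.05. In the genes of this class 0 were called in either direction, with 96 higher and 102 lower at that threshold. An adjusted p under 0.1 gave 2 and 0, and all probe sets as features, also added later, 2 and 6. Median centring, the most variable probe set, robust moderation and a 1.5-fold minimum kept 1 and 0. With 1 liver left out, 0 to 2 were called higher and 0 to 1 lower. Of the 107 named genes, 28 gained a call with weights, 12 with quantile normalization and 9 with 6 arrays. Many of them were named for a small p in the main fit, a choice that favours such gains. The cause of these changes was not tested.

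Nr1d1, which is not in the upper rounding class, kept its direction in all other settings and lost its call with 6 arrays (adjusted p 0.143, with the block 0.0813), without moderation (0.243) and without 4 of the 6 single livers. After quantile normalization of the centred values the differences of some clock genes turned positive: Arntl 0.0368, Hlf 0.0198, Per1 0.14, Per2 0.0636, Per3 0.23 and Tef 0.27. With 1 liver left out they ranged from -0.15 to 0.12 for Nfil3, from -0.0603 to 0.0184 for Arntl2 and from -0.16 to 0.0345 for Per1. The range was -0.26 to 0.0744 for Per3, -0.68 to 0.27 for Dbp, -0.17 to 0.051 for Tef, -0.12 to 0.00892 for Hlf and -0.13 to 0.015 for Bhlhe41. None of these was called. The median of all genes was 0.0155, 0.0146 after quantile normalization and 0.0105 after centring. Signal over background is not known for centred values. The rounding class separates only higher from lower values before centring, so it sets no limit for dim genes.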
